A study of Homo sapiens with 6 samples.

Results

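The mitochondrially encoded genes are the 37 genes of the human mitochondrial chromosome, taken here as every row of the expression table whose symbol begins with MT-. They number 13 messenger RNAs (mRNAs), 2 ribosomal RNAs (rRNAs) and 22 transfer RNAs (tRNAs) among 60670 genes in all. They were measured in the human endometrial adenocarcinoma line Ishikawa, in 3 libraries of cells given the solvent DMSO and 3 libraries of cells given 5 µM penfluridol. Penfluridol is a long-acting antipsychotic drug of the diphenylbutylpiperidine class. The labels name no genetic change in either group and give no length of treatment, and all 6 libraries come from the same line. Whether the numbered libraries came from separate cultures is not stated. The p-values therefore reflect only library-to-library spread, which may be technical.

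Mitochondrial DNA is transcribed in both directions into long precursor RNAs that span many genes. In most places a tRNA lies between neighbouring genes, and cutting the tRNAs out of the precursor frees the mRNAs and rRNAs, which then differ in level through processing, polyadenylation and decay. The mRNAs encode core subunits of respiratory complexes I, III and IV and of the ATP synthase (complex V), while all other subunits, and every protein that copies, transcribes and translates mitochondrial DNA, come from nuclear genes. In the annotation 12 of the 13 mRNAs lie on the plus strand. MT-ND6 lies on the opposite strand and is known to carry little or no poly(A) tail.

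Some of the mRNAs overlap, which bears on how reads can be assigned to them. MT-ATP8 (chrM:8366-8572, plus strand, GRCh38) shares its last 46 bases with the start of MT-ATP6 (chrM:8527-9207). Both are translated from 1 RNA. The shared bases are in capitals in the last 80 bases of MT-ATP8 and the first 80 bases of MT-ATP6, both from the GENCODE release 29 transcripts.
MT-ATP8: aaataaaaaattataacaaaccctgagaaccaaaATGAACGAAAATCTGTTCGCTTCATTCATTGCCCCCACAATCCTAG
MT-ATP6: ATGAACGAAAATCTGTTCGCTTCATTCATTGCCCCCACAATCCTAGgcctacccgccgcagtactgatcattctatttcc
MT-ND4L (chrM:10470-10766) and MT-ND4 (chrM:10760-12137) also share an RNA and overlap by 7 bases, again in capitals in the last 40 bases of the former and the first 40 of the latter.
MT-ND4L: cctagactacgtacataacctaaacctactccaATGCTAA
MT-ND4: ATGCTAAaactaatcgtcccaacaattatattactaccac

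Of the 13 mRNAs 7 contain a complete stop codon, and in the other 6 the gene ends after its first 1 or 2 letters, so that the poly(A) tail completes it. The 3′ ends of the mRNAs that the results turn on are shown as their last 40 bases, with the stop letters in capitals. MT-ND1 (chrM:3307-4262) ends in TA, MT-CO3 (chrM:9207-9990) and MT-ND3 (chrM:10059-10404) in a single T, and MT-ND6 (chrM:14149-14673, minus strand) in a full AGG.
MT-ND1: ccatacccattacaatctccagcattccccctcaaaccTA
MT-CO3: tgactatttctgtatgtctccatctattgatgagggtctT
MT-ND3: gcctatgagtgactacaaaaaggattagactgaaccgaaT
MT-ND6: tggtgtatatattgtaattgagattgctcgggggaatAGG

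Expression was given as TPM, transcript abundance per unit of transcript length scaled to a fixed total per library, which keeps no read counts, so the depth is unknown. On the log2(TPM + 1) scale, Pearson's r across genes was 0.930 to 0.960 among DMSO libraries, 0.970 to 0.982 between penfluridol libraries and 0.895 to 0.955 between the groups. All 9 epithelial and endometrial markers had a mean of at least 1 TPM, with a summed level of 7000 to 8860 TPM in DMSO and 4610 to 5180 TPM with penfluridol. Leukocyte markers (1 of 4 at a mean of at least 1 TPM) summed to 0.77 to 1.48 TPM in DMSO and 4.56 to 4.88 TPM with penfluridol, with CD3E at 0. Stromal markers (1 of 5, with DCN, LUM and PDGFRB at 0) summed to 1.81 to 4.50 TPM and endothelial markers (0 of 3) to 0.20 to 0.88 TPM over all libraries. The part of these markers in the results was not tested. Small non-coding RNA took 4.02%, 0.690% and 1.65% of all TPM in DMSO 1, 2 and 3 and 0.253% to 0.474% in the penfluridol libraries. The libraries also differed in their trend with transcript GC content. Relative to the mean of the 6 libraries, expression changed per 10 points of GC content by -0.24, -0.52 and 0.10 on the log2 scale in DMSO 1, 2 and 3 and by 0.32, 0.23 and 0.11 in penfluridol 1, 2 and 3.

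The MT- genes together took 1.37%, 1.85% and 1.00% of all TPM in DMSO 1, 2 and 3 and 0.821%, 0.933% and 1.45% in penfluridol 1, 2 and 3. The 13 mRNAs summed to 11110, 15300 and 9000 TPM in DMSO and to 7020, 7857 and 12390 TPM with penfluridol. The groups overlapped, with penfluridol 1 and 2 below every DMSO library and penfluridol 3 above DMSO 1 and 3. The mean log2 difference was -0.39 (exact two-sided permutation test, p = 0.3, where 3 libraries against 3 cannot go below 0.1). It was -0.18 without DMSO 2, -0.22 without penfluridol 1 and -0.63 without penfluridol 3. The direction also depended on processing. After each library's trend with GC content and length was removed, 11 of the 13 mRNAs had a log2 fold change above 0, with a median of 0.42. In bulk RNA, fewer copies of mitochondrial DNA, less transcription and faster decay cannot be told apart, and TPM gives only the level relative to all other transcripts.

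The 2 rRNAs, MT-RNR1 of the small and MT-RNR2 of the large mitochondrial ribosomal subunit, summed to 2547, 3147 and 999 TPM in DMSO and to 1157, 1441 and 2109 TPM with penfluridol. DMSO 3 was the lowest of all 6 libraries and the other DMSO libraries were the highest. The log2 difference was -0.40 (exact permutation p = 0.5). It was -0.90 without DMSO 3, -0.63 without penfluridol 3, -0.22 without DMSO 1, -0.20 without penfluridol 1 and -0.07 without DMSO 2. With the trend with GC content and length removed, the log2 fold changes were 0.86 for MT-RNR1 and 0.046 for MT-RNR2. The ratio of rRNA to mRNA was 0.182 ± 0.0626 in DMSO and 0.173 ± 0.00958 with penfluridol (SD, n = 3 per group), a log2 difference of -0.01 (exact permutation p = 1).

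**Figure D1:**
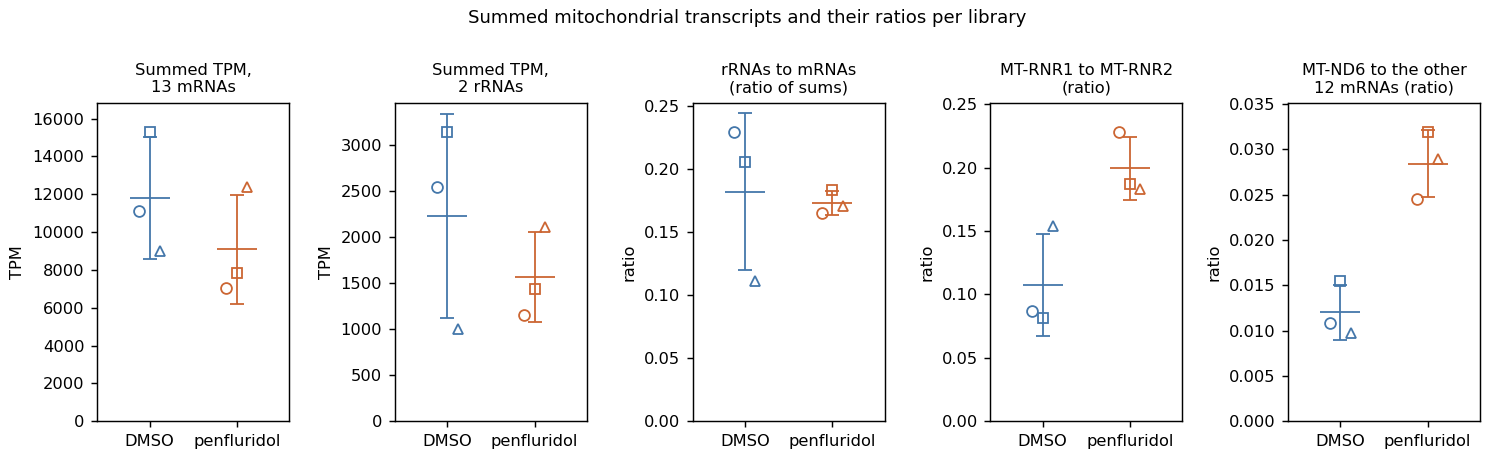
Summed TPM of the 13 mRNAs and of both rRNAs, the ratio of the sums, the ratio of MT-RNR1 to MT-RNR2 and the ratio of MT-ND6 to the sum of the other 12 mRNAs. Points are libraries (circle 1, square 2, triangle 3), horizontal bars means and vertical bars SD (n = 3). The sums overlap between groups, while the last 2 ratios are higher in all 3 penfluridol libraries than in any DMSO library.

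Per gene, penfluridol was compared with DMSO by limma on log2(TPM + 1) across the 12201 genes whose mean reached 1 TPM, with p-values adjusted over all of them and an adjusted p under 0.05 taken as a call. All 13 mRNAs and both rRNAs passed the filter. None of these 15 was called higher, against 9.75% of all genes tested, and 1, MT-ND3, was called lower, against 3.48%. At an unadjusted p under 0.05 there were 2, MT-ND3 and MT-CO3, both lower. TPM did not overlap between the groups for the same 2 genes, while 37.0% of all genes tested were separated in this way. The median log2 fold change of the 13 mRNAs was -0.08, beside -0.04 for all genes tested, with 6 above and 7 below 0. The libraries differed as blocks. DMSO 2 had the highest and DMSO 3 the lowest value of its group for each of the 13 mRNAs, and penfluridol 3 had the highest value of its group for each of them. Within DMSO the highest library exceeded the lowest by 1.12 times for MT-ND3 and by 1.37 to 3.20 times for the other 12, and within penfluridol by 1.33 to 2.43 times.

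**Figure D2:**
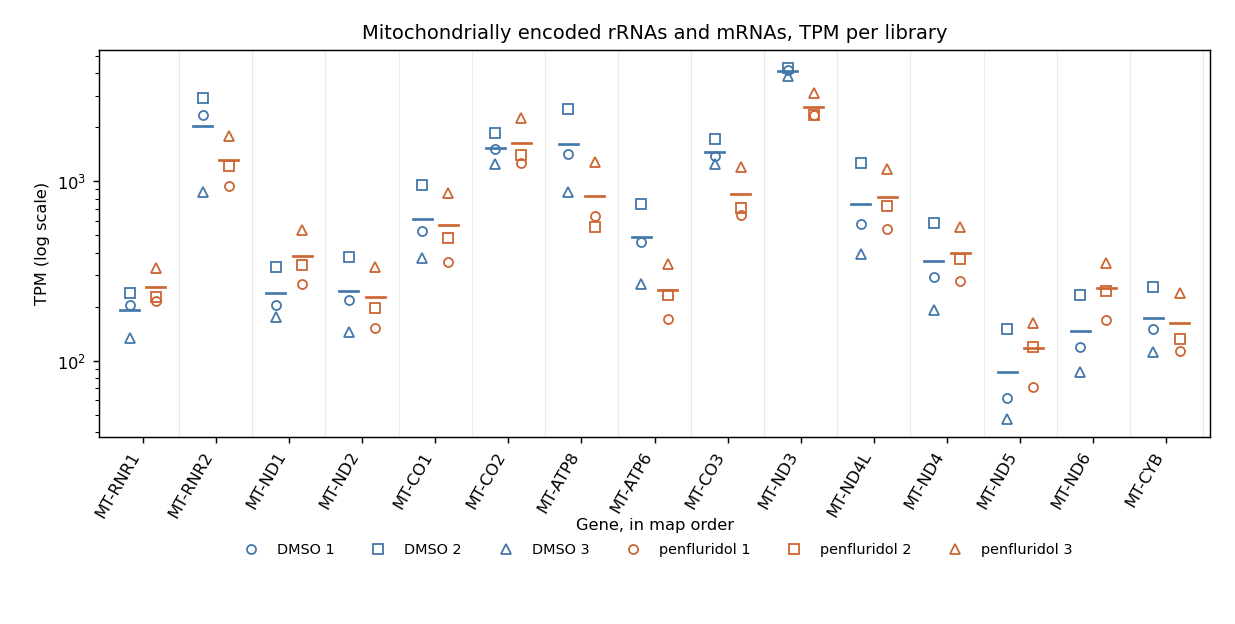
TPM (log axis) of both rRNAs and the 13 mRNAs in map order, for each DMSO and penfluridol library, with short bars for the group means. MT-ND3 and MT-CO3 are lower in all 3 penfluridol libraries than in any DMSO library, and the other genes overlap.

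Of the rRNAs, MT-RNR1 was at 204, 237 and 133 TPM in DMSO 1, 2 and 3 and at 215, 227 and 326 TPM in penfluridol 1, 2 and 3. The groups overlapped (log2 fold change 0.43, SE 0.25, limma adjusted p = 0.258). MT-RNR2 was at 2343, 2910.1 and 866 TPM under DMSO and at 942, 1214 and 1783 TPM with penfluridol. Its 2 highest values were DMSO libraries and its lowest was also a DMSO library (log2 fold change -0.51, SE 0.46, adjusted p = 0.450). Both rRNAs come from the same precursor, and their ratio was also compared between the groups. The libraries were made with an mRNA kit, and MT-RNR1 averaged 192 TPM in DMSO beside 2040 TPM for MT-RNR2. How fully the kit captured either rRNA was not tested, so these values are not read here as rRNA levels. MT-RNR1 stood to MT-RNR2 at 0.0871, 0.0816 and 0.154 in DMSO and at 0.228, 0.187 and 0.183 with penfluridol. Every penfluridol library lay above every DMSO library, with DMSO 3 the nearest (log2 difference 0.95, exact permutation p = 0.1, the smallest possible).

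Complex I, the NADH dehydrogenase that feeds electrons into the chain, has 7 mitochondrially encoded subunits. MT-ND1, which lies at the junction of the peripheral and membrane arms, was at 205, 332 and 175 TPM under DMSO and at 269, 342 and 534 TPM with penfluridol. Only DMSO 2 overlapped the penfluridol libraries (log2 fold change 0.68, SE 0.31, adjusted p = 0.176). MT-ND2, a proton-pumping subunit of the membrane arm, was at 216, 376 and 145 TPM under DMSO and at 152, 197 and 332 TPM with penfluridol. The 2 groups covered nearly the same range (log2 fold change -0.08, SE 0.40, adjusted p = 0.902).

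MT-ND3, a small subunit next to the quinone-binding site, was the one gene called. It was at 4191, 4309 and 3845 TPM under DMSO and at 2355, 2336 and 3117 TPM with penfluridol. All penfluridol values lay below all DMSO values, and the DMSO libraries were closer together than for any other mRNA. MT-ND3 fell by 0.67 on the log2 scale, 0.628 times the DMSO level (SE 0.14, limma adjusted p = 0.0269). The call held without DMSO 3 (0.0217) or penfluridol 3 (0.0284) but the adjusted p was 0.125 without DMSO 1, 0.0826 without DMSO 2, 0.106 without penfluridol 1 and 0.145 without penfluridol 2. The call was also lost when the GC content and length trend of each library was removed, where the log2 fold change became 0.23 (adjusted p = 0.459). The gene is 346 bases long with a GC content of 40.2%, and 263 other genes tested were as short or shorter.

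MT-ND4 and MT-ND4L, subunits of the membrane arm, are read from 1 RNA. MT-ND4 was at 294, 587 and 192 TPM under DMSO and at 277, 367 and 553 TPM with penfluridol (log2 fold change 0.25, SE 0.42, adjusted p = 0.694). MT-ND4L was at 575, 1261 and 394 TPM under DMSO and at 541, 731 and 1175 TPM with penfluridol (log2 fold change 0.23, SE 0.45, adjusted p = 0.739). Both groups spanned each other, and the pair moved together from library to library. The ratio of MT-ND4L to MT-ND4 was 1.96, 2.15 and 2.05 in DMSO and 1.95, 1.99 and 2.13 with penfluridol, so that the TPM of the shorter member was about 2 times that of its partner on the same RNA in each library. Differences in TPM between the short mRNAs and the long ones are therefore not read here as differences in RNA level.

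MT-ND5, the largest mitochondrially encoded subunit, at the far end of the membrane arm, was at 62.0, 150.1 and 47.1 TPM under DMSO and at 71.4, 119 and 163 TPM with penfluridol. It had the lowest mean of the 13 mRNAs, and the groups overlapped through DMSO 2 (log2 fold change 0.55, SE 0.46, adjusted p = 0.425). MT-ND6, the subunit encoded on the other strand, was at 119.6, 233 and 86.6 TPM under DMSO and at 168, 243 and 348 TPM with penfluridol. Here too only DMSO 2 overlapped the penfluridol libraries (log2 fold change 0.85, SE 0.40, adjusted p = 0.182). The sources used here do not say whether the libraries kept the strand, and RNA read through from MT-ND5 runs antisense to MT-ND6, so reads of the 2 cannot be told apart with certainty.

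Complex III, the cytochrome bc1 complex, has a single mitochondrially encoded subunit, the cytochrome b of MT-CYB. It was at 149, 256 and 112 TPM under DMSO and at 114, 132 and 238 TPM with penfluridol. The groups covered the same range (log2 fold change -0.08, SE 0.37, adjusted p = 0.892).

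Complex IV, cytochrome c oxidase, passes electrons to oxygen. MT-CO1, its catalytic subunit, was at 529, 949.9 and 374 TPM under DMSO and at 355, 482 and 863 TPM with penfluridol (log2 fold change -0.11, SE 0.42, adjusted p = 0.866). MT-CO2, which takes electrons from cytochrome c, was at 1508, 1854 and 1240.3 TPM under DMSO and at 1261, 1408 and 2255 TPM with penfluridol (log2 fold change 0.07, SE 0.25, adjusted p = 0.864). Neither separated the groups. MT-CO3, which stabilises the core, was at 1389, 1710.5 and 1246 TPM under DMSO and at 649, 712 and 1195 TPM with penfluridol. All penfluridol values lay below all DMSO values, but penfluridol 3 came within a few percent of DMSO 3. The log2 fold change of -0.81 (SE 0.24) was not called (limma adjusted p = 0.0731). It was called without DMSO 3 (0.0476) or penfluridol 3 (0.0284) and with median-of-ratios scaling (0.0415). The adjusted p was 0.198 without DMSO 1, 0.195 without DMSO 2, 0.211 without penfluridol 1 and 0.236 without penfluridol 2. With the replicate block it was 0.188, and with no filter 0.173.

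The ATP synthase draws its proton channel from MT-ATP6 and a small membrane subunit from MT-ATP8. MT-ATP6 was at 457, 742 and 268 TPM under DMSO and at 170.2, 232 and 344 TPM with penfluridol. Penfluridol 1 and 2 lay below every DMSO library and penfluridol 3 lay between DMSO 3 and DMSO 1 (log2 fold change -0.91, SE 0.40, adjusted p = 0.158). The limma adjusted p was 0.0312 without DMSO 3 and 0.143 to 0.378 with any other library left out. MT-ATP8 was at 1419, 2539 and 876 TPM under DMSO and at 639, 556 and 1278 TPM with penfluridol, with the same order of libraries but for penfluridol 2 as the lowest (log2 fold change -0.93, SE 0.44, adjusted p = 0.186). The ratio of MT-ATP8 to MT-ATP6 was 3.11, 3.42 and 3.27 in DMSO and 3.75, 2.40 and 3.71 with penfluridol.

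**Figure D3:**
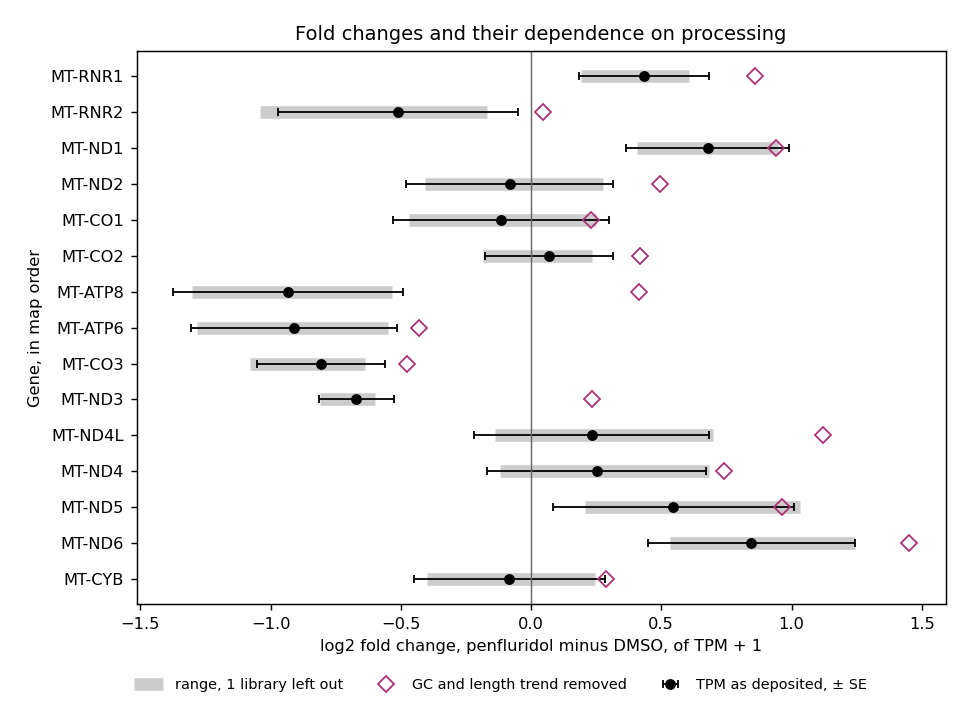
Log2 fold changes of TPM + 1, penfluridol minus DMSO, for both rRNAs and the 13 mRNAs in map order. Black points are values from TPM as deposited with their SE, grey bars the range with 1 library left out, and open diamonds the values after each library's trend with GC content and length was removed. The grey bars stay on 1 side of 0 for MT-RNR1, MT-RNR2, MT-ND1, MT-ATP8, MT-ATP6, MT-CO3, MT-ND3, MT-ND5 and MT-ND6, and the diamonds lie to the right of every black point.

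Since the libraries shifted as blocks, each mRNA was also given as its share of the summed TPM of the 13, a ratio that does not depend on how a library was scaled to its total. The shares of MT-ND1, MT-ND6, MT-ND5, MT-ND4 and MT-CO2 were larger, and those of MT-ATP6 and MT-CO3 smaller, in every penfluridol library than in any DMSO library. These were 7 of the 13. In TPM, a different measure, 37.0% of all genes tested were separated in this way, and no such share was taken for ratios of other genes. For each of them the exact permutation p was 0.1, the smallest that 3 libraries against 3 can give, and 0.186 after Benjamini-Hochberg adjustment over the 13, so that none could pass 0.05. The shares of 1 library sum to a fixed total and are not independent of each other.

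MT-ND1 had the clearest separation. Its share was 1.84%, 2.17% and 1.94% in DMSO 1, 2 and 3 and 3.83%, 4.35% and 4.31% in penfluridol 1, 2 and 3. The lowest penfluridol library was well above the highest DMSO library, and the geometric mean of the share was 2.10 times as high. MT-ND6 took 1.08%, 1.52% and 0.962% of the pool in DMSO and 2.39%, 3.09% and 2.81% with penfluridol, 2.36 times as much. Set against the other 12 mRNAs, all of the opposite strand, MT-ND6 was at a ratio of 0.0120 ± 0.00304 in DMSO and 0.0284 ± 0.00375 with penfluridol (SD, n = 3 per group), a log2 difference of 1.26 (exact permutation p = 0.1). How fully the mRNA kit captured MT-ND6 was not tested, so the ratio is not read here as one between the strands.

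MT-ND5 took 0.558%, 0.981% and 0.523% in DMSO and 1.02%, 1.52% and 1.31% with penfluridol, where DMSO 2 and penfluridol 1 nearly met. MT-ND4 took 2.65%, 3.84% and 2.14% in DMSO and 3.94%, 4.67% and 4.46% with penfluridol, with DMSO 2 again next to penfluridol 1. MT-CO2 took 13.6%, 12.1% and 13.8% in DMSO and 17.96%, 17.9% and 18.2% with penfluridol. The penfluridol libraries were almost alike in this share, although their TPM of MT-CO2 differed by 1.79 times.

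The smaller shares belonged to neighbours on the chromosome. MT-CO3 took 12.5%, 11.2% and 13.9% of the pool in DMSO and 9.24%, 9.06% and 9.64% with penfluridol, and MT-ATP6 took 4.11%, 4.85% and 2.98% in DMSO and 2.43%, 2.95% and 2.78% with penfluridol. For MT-ATP6 DMSO 3 lay next to penfluridol 2, so the separation was narrow. MT-ATP8, upstream of both, took 12.8%, 16.6% and 9.73% in DMSO and 9.10%, 7.07% and 10.3% with penfluridol, with an overlap between DMSO 3 and penfluridol 3. MT-ND3, which follows MT-CO3, took 36.2% ± 7.39 in DMSO and 29.5% ± 4.21 with penfluridol (SD, n = 3 per group), and the groups overlapped. MT-ND4L, which follows MT-ND3, took 5.93% ± 2.04 and 8.83% ± 0.979, also with an overlap. The shares of MT-ND2, MT-CO1 and MT-CYB overlapped between the groups, with log2 differences of 0.31, 0.27 and 0.30.

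**Figure D4:**
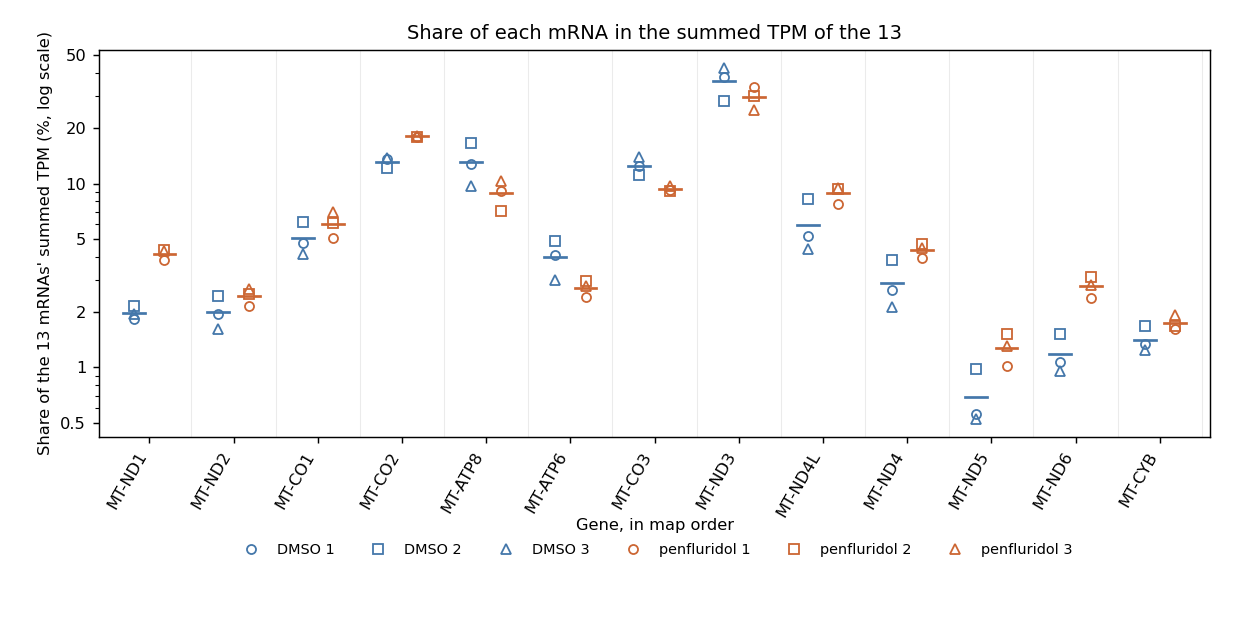
Share of each mRNA in the summed TPM of the 13 (percent, log axis) in map order, for each library, with short bars for the group means. The groups are apart for MT-ND1, MT-CO2, MT-ATP6, MT-CO3, MT-ND4, MT-ND5 and MT-ND6.

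Because MT-ND3 made up 25.2% to 42.7% of the pool, the shares were taken again against 3 other references, chosen after these values were seen. They were the geometric mean of the 13, the sum of TPM times gene length, and shares with the GC content and length trend of each library removed first. MT-ND1 and MT-ND6 were higher, and MT-ATP6 and MT-CO3 lower, without overlap under all 4 references. The log2 differences ranged from 0.65 to 1.07 for MT-ND1, from 0.93 to 1.24 for MT-ND6, from -0.84 to -0.53 for MT-ATP6 and from -0.78 to -0.42 for MT-CO3. MT-ND4 and MT-ND5 stayed higher but overlapped under 1 of the 4, the one with the trend removed, and MT-CO2 overlapped under 2. MT-ATP8 changed sign, from -0.86 against the geometric mean to 0.12 with the trend removed. MT-ATP6, on the same RNA, was at -0.73 with the trend removed, so the removal set the pair apart.

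Removing the trend with GC content and length moved all fold changes of the 15 genes upward. Then 4 of the 15 were called higher, MT-ND1 (log2 fold change 0.94, adjusted p = 0.0141), MT-ND5 (0.96, 0.0487), MT-ND6 (1.45, 0.0039) and MT-RNR1 (0.86, 0.0022), against 10.2% of all genes tested. None was called lower, against 8.95%. Without DMSO 3, and with TPM as deposited, 4 were called lower, MT-ATP6, MT-CO3, MT-ND3 and MT-RNR2, against 18.5% of all genes tested. With the trend removed, genes on 1 RNA no longer moved alike. MT-ATP8 was at 0.42 beside -0.43 for MT-ATP6, and MT-ND4L at 1.12 beside 0.74 for MT-ND4. Fold changes with the trend removed are therefore uncertain for the short mRNAs, MT-ND3 among them. The part of GC content, length and DMSO 3 in the deposited values was not tested.

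All 22 tRNA genes were listed at 0 in all 6 libraries. They are 59 to 75 bases long, and of the 1304 genes in the table with an annotated length no greater than that of the longest of them 2 were above 0 in any library. The zeros therefore give no level for the mitochondrial tRNAs.

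The nuclear genome holds copies of mitochondrial genes that can share reads with them. Of 408 such rows 22 were above 0 in some library, and together they summed to 43.4 to 109 TPM, or 0.434% to 0.630% of the TPM of the MT- genes. The 3 with the highest means were MTATP6P1, at 33.8, 55.3 and 20.5 TPM in DMSO and 12.3, 19.4 and 34.3 TPM with penfluridol (limma adjusted p = 0.288), MTRNR2L1 (0.783) and MTND3P22 (0.858). As for MT-ATP6, DMSO 2 was the highest and penfluridol 1 the lowest library for MTATP6P1. MTND6P3, chosen after its values were seen, was at 0.430, 1.02 and 0.130 TPM in DMSO and 1.65, 2.33 and 2.72 TPM with penfluridol (adjusted p = 0.051), the direction of MT-ND6. Adding the copies to their parent genes changed the direction of no share or ratio.

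Nuclear genes that act on mitochondrial DNA and RNA were counted in 5 lists, to be read beside the 9.75% of all genes tested that were called higher and the 3.48% called lower, with an overall median log2 fold change of -0.04. Of 19 tested genes of mitochondrial transcription and the nucleoid, 1 rose, none fell and 18 were not called, with a median log2 fold change of -0.37. The one that rose was LONP1, the matrix protease that also degrades the transcription factor TFAM, from 169 ± 18.2 TPM to 424 ± 26.8 (SD, n = 3 per group, log2 fold change 1.33, SE 0.12, adjusted p = 0.00174). Its call held with each library left out. Of 21 genes of RNA processing, polyadenylation, stability and decay, 1 rose and 1 fell (median -0.44). SLIRP, which with LRPPRC binds and stabilises mitochondrial mRNAs, fell from 1013 ± 281 TPM to 559 ± 42.0 (log2 fold change -0.82, SE 0.20, adjusted p = 0.0401). Its call held without DMSO 3 only and was lost with the GC and length trend removed (log2 fold change -0.39, adjusted p = 0.139). FASTK, of a family of mitochondrial RNA-binding proteins in which it is known to stabilise the MT-ND6 RNA, rose from 56.1 ± 5.61 TPM to 89.3 ± 4.78 (log2 fold change 0.67, SE 0.12, adjusted p = 0.0154). That call was lost without DMSO 1, penfluridol 1 or penfluridol 2. With the GC and length trend removed, the medians were 0.06 for the transcription list and -0.10 for the processing list, beside -0.01 for all genes tested. Among genes with at least 5 TPM in at least 3 libraries they were 0.15 and -0.05, beside 0.07 for all genes tested.

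Of 22 genes of rRNA and tRNA modification 3 rose and none fell (median 0.12). YRDC, which supplies the precursor of a modified adenosine in tRNAs, rose from 14.7 ± 1.41 TPM to 29.3 ± 0.427 (log2 fold change 0.96, SE 0.13, adjusted p = 0.00698, or 0.0599 without penfluridol 2). PUS1, a pseudouridine synthase of tRNAs, rose from 32.4 ± 1.00 TPM to 56.4 ± 6.65 (log2 fold change 0.77, SE 0.13, adjusted p = 0.0118, lost without DMSO 1 or penfluridol 2). Of 14 translation factors 2 fell and none rose (median -0.64). They were GFM2 and MRRF, which together release the ribosome for recycling, with log2 fold changes of -1.62 (adjusted p = 0.0459) and -1.04 (0.0463). Of the fits with 1 library left out, both calls held only without DMSO 3. They also held with the GC and length trend removed (log2 fold changes -1.01 and -0.65, adjusted p = 0.0154 and 0.0134). Of 5 tested regulators of mitochondrial biogenesis 1 rose, the nuclear receptor ESRRA, from 54.9 ± 6.39 TPM to 106 ± 16.8 (log2 fold change 0.93, SE 0.15, adjusted p = 0.0121, lost without DMSO 1, penfluridol 1 or penfluridol 2). With the trend removed, the medians were 0.006 for the modification list, -0.07 for the translation factors and 0.16 for the regulators, beside -0.01 for all genes tested. Among genes with at least 5 TPM in at least 3 libraries they were 0.22, 0.06 and 0.33, beside 0.07 for all genes tested.

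The nuclear-encoded partners in the same complexes were counted against the same shares of 9.75% higher and 3.48% lower. Of 37 tested subunits of complex I 1 rose and 6 fell (median -0.23), and NDUFB4 fell from 560 ± 36.1 TPM to 329.5 ± 55.7 (adjusted p = 0.0171) while NDUFA7 rose from 169 ± 9.16 TPM to 239 ± 14.6 (adjusted p = 0.0234). NDUFC1, another complex I subunit, fell by 0.63 on the log2 scale (adjusted p = 0.0278). Of 9 subunits of complex III 1 fell, UQCR10 (log2 fold change -0.68, adjusted p = 0.0261), and of 11 of complex IV 1 fell, COX7B (-0.97, 0.0471). Of 18 subunits of the ATP synthase 5 fell, among them ATP5MC3 of the rotor ring (-0.56, 0.0231) and the small subunit ATP5MJ (-0.55, 0.025), and none rose (median -0.51). Complex II, which has no mitochondrially encoded subunit, had none of 4 called, with SDHC the nearest (-0.32, adjusted p = 0.0721). Each named call of a subunit was lost in 4 or 5 of the 6 fits with 1 library left out. With the GC and length trend removed, 3 subunits of complex I, 1 of complex III, 0 of complex IV and 3 of the ATP synthase were called lower, against 8.95% of all genes tested. NDUFC1 (adjusted p = 0.0108) and UQCR10 (0.0108) were among them. The calls of NDUFB4 (0.123), NDUFA7 (0.0744), COX7B (0.189), ATP5MC3 (log2 fold change -0.15, adjusted p = 0.732) and ATP5MJ (-0.14, 0.614) were lost. The median log2 fold changes were then -0.19 for complex I and -0.245 for the ATP synthase, beside -0.01 for all genes tested.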

How the data were processed

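Messenger RNA libraries of Ishikawa cells treated with DMSO or penfluridol (3 each) were prepared from total RNA, per the labels' protocols, using a SMARTer mRNA kit. The deposited values are read as TPM scaled by the authors within each library, since the header names no unit, RSEM gives TPM and the library totals (994165 to 997207) are nearly equal. The tools fastp and RSEM and the build GRCh38.p13 come from the submitters' processing notes. The sources used here give no versions, aligner or annotation. The table has 60670 genes, 0 columns of other samples and 1 emptied line. Of the gene identifiers 58452 matched GENCODE release 29 (GRCh38), the source of positions, lengths, GC content and sequences.

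The 12201 genes whose mean reached 1 TPM were fitted with limma 3.58.1 in R 4.3.3 on log2(TPM + 1) with an intercept and treatment, a variance trend and Benjamini-Hochberg adjustment at 0.05. The fit was tested on simulated data. A fold change on this scale understates low genes. Sums and ratios were compared by exact two-sided permutation over the libraries. GC and length trends were removed per library with splines fitted to genes other than the MT- rows, for the 12112 genes with both values. Among the 12201 genes tested, pairs of libraries had exactly equal TPM for 71 to 143, and no library was merged with another.

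The members and gene lists were chosen with earlier results of these data known. Named were all mRNAs and rRNAs, tRNAs with a mean of at least 1 TPM (none), the called members with the 2 smallest p in each direction in each nuclear list (or the member with the smallest p), and the 3 nuclear copies with the highest mean. Of 168 listed names 1 was a second name of another, and 160 of 167 genes were tested.

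The alternatives were a pseudocount of 0.1, no filter, a stricter filter (5 TPM or more in 3 or more libraries), a replicate block, 2 other scalings, nuclear copies added to their parents, the GC and length correction and each library left out.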

Additional observations from a re-analysis of the deposited data

How the results depend on the processing

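All values here are limma calls at an adjusted p under 0.05 or log2 differences. Over all genes 1190 were called higher and 425 lower. These became 62 and 12 with the replicate block, 802 and 194 without a filter, 993 and 718 with median-of-ratios scaling and 1232 and 1084 with the GC and length trend removed, and ranged from 197 to 1692 and from 40 to 2261 with 1 library left out. The labels do not say whether same-numbered libraries pair. The correlations of their deviations from the group means were -0.008, -0.006 and -0.348, and those of differently numbered libraries ran from -0.334 to 0.32. With 3 libraries a group these values cannot settle whether the libraries were paired. The replicate block left 0 MT- genes called and 1 list member higher and 0 lower. Of the MT- genes 0 were called higher and 1 lower, moving to 0 lower without a filter, 2 lower with median-of-ratios scaling, 4 higher and 0 lower with the trend removed, and 0 to 4 lower with 1 library left out. Of the listed nuclear genes 7 were higher and 16 lower, moving to 2 lower without a filter and 4 higher with median-of-ratios scaling, and ranging from 1 to 11 higher and 0 to 57 lower with 1 library left out.

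With the trend removed, log2 fold changes turned to 0.50 for MT-ND2, 0.23 for MT-CO1, 0.42 for MT-ATP8, 0.23 for MT-ND3, 0.29 for MT-CYB and 0.046 for MT-RNR2, none called. The share of complex IV turned from 0.12 to -0.22, that of MT-ATP8 to 0.12, of MT-CO1 to -0.069 and of MT-CYB to -0.011. Against the geometric mean MT-ND2 turned to -0.008, MT-CO1 to -0.041 and MT-CYB to -0.009. With 1 library left out, fold changes crossed 0 for MT-ND2 (-0.41 to 0.28), MT-CO1 (-0.47 to 0.25), MT-CO2 (-0.184 to 0.235), MT-ND4L (-0.14 to 0.70), MT-ND4 (-0.12 to 0.69) and MT-CYB (-0.40 to 0.24), as did the rRNA to mRNA ratio (-0.33 to 0.19). With the trend removed, MT-ND1 changed on the log2 scale by 0.94 in TPM and by 0.65 as a share. The log2 difference of the summed mRNAs therefore turned from negative to positive. Both rRNAs then had log2 fold changes above 0 (0.86 for MT-RNR1 and 0.046 for MT-RNR2). No other ratio or share changed sign under any alternative run, and the cause of these shifts was not tested. A filter of at least 5 TPM moved the median of all genes by 0.10 on the log2 scale through the genes it tests. Since TPM keep no depth, the precision of a value rests on 3 libraries a group.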

Other observations

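The summed TPM of the mitochondrially encoded subunits was set beside that of the listed nuclear-encoded subunits of the same complex. The ratio was 0.372 ± 0.0770 in DMSO and 0.342 ± 0.111 with penfluridol for complex I, and 0.0442 ± 0.0159 and 0.0495 ± 0.0213 for complex III (SD, n = 3 per group). It was 0.303 ± 0.0692 and 0.277 ± 0.105 for complex IV, and 0.162 ± 0.0740 and 0.107 ± 0.0462 for the ATP synthase. The groups overlapped in all 4 complexes, and penfluridol 3 was the highest of its group in each. These ratios were not tested.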
